A study of Mus musculus with 4 samples.

Results

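Kinesins are motor proteins that walk along microtubules or take them apart. The genes described here were the rows of the expression table whose symbol is Kif followed by a digit and whose mean was above 0, with Kifc1 added. There were 36 of them among 23970 symbols. A set of 12 mitotic kinesins (Kif2c, Kif4, Kif11, Kif14, Kif15, Kif18a, Kif18b, Kif20a, Kif20b, Kif22, Kif23 and Kifc1) was set against the other 24, most of which carry vesicles, organelles or ciliary cargo. Kif12 and Kif2b also fit the name rule but were listed at 0 in all 4 libraries, so they are not members.

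The cells were primary keratinocytes from newborn mouse skin at passage 0. They grew in low-calcium E-media, which keeps them from differentiating, over J2-3T3 feeders (a mouse fibroblast line that had been made unable to divide), and the feeders were cleared before the RNA was taken, ahead of confluence. The control group had the genotype label control and the other group the label Ovol2-deficient, with 2 libraries each and no further treatment. The sources used here give neither the allele, a Cre driver nor the strain, nor whether the libraries of a group came from separate animals, and p-values measure only the spread between these libraries, which may be technical. Levels are in FPKM, a count of sequenced fragments scaled to transcript length and library size. The steps between the lowest values put the depth of control 2 and of deficient libraries 1 and 2 at 1.05, 1.17 and 1.09 times that of control 1, and the absolute depth is not given in the files. The keratinocyte markers Krt5 and Krt14, the keratins of basal epidermal cells, were at 2762 to 2960 and 2225 to 2292 FPKM in the controls, against 2269 to 2484 and 1773 to 2280 in the deficient libraries. Ovol2, which encodes a zinc-finger repressor known from epithelial cells, stood at 2.68 and 2.14 FPKM in the controls, against 1.45 and 0.941 in the deficient libraries (limma adjusted p = 0.129).

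In a dividing cell, mitotic kinesins push the spindle poles apart, hold and move chromosomes, and build the midzone at which the cell is cut into daughters. Their genes are switched on late in the cell cycle, and many late cell cycle promoters carry a short element, the cell cycle genes homology region (CHR), with the core letters TTTGAA, often with CCAAT boxes, the letters CCAAT bound by the factor NF-Y, nearby. The CHR is known as the contact of the MuvB core, which represses such genes in resting cells within the DREAM complex and activates them in cycling cells together with B-Myb and Foxm1. Transport kinesins are used throughout the cell cycle and in cells that no longer divide.

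The promoter sequences are shown first, since 10 of the 11 mitotic promoters available hold the CHR letters and the choice of genes did not use them. Sequences are from RefSeq on build GRCm38.p6, the same assembly as mm10, and run from 110 bases before the transcript start of that table to at most 30 bases after the gene's first annotated base. Capitals mark the letters TTTGAA, which read TTCAAA where the match is on the opposite strand. Those of Kif11 and Kif23, the members that passed the test below, come first, followed by Kif4, Kif15 and Kifc1, and then by Kif18a, the one mitotic promoter in the table with no match.
Kif11: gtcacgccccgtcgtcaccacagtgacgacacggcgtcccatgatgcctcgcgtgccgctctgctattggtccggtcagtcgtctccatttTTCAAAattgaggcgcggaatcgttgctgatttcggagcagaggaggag
Kif23: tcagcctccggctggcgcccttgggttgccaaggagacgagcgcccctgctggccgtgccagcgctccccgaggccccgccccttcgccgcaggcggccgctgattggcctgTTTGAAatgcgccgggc
Kif4: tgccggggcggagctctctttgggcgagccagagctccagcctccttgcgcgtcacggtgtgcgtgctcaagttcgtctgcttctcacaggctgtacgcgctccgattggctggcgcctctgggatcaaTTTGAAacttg
Kif15: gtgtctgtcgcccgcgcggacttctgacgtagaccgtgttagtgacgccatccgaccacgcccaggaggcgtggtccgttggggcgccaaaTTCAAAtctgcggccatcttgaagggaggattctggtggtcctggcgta
Kifc1: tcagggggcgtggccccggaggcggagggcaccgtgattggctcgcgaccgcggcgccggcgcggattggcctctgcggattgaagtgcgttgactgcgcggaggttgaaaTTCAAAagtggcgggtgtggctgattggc
Kif18a: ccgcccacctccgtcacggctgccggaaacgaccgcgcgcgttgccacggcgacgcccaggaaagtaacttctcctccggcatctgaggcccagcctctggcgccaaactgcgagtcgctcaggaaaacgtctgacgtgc
The windows lie at chr19:37376272-37376411 (plus strand) for Kif11, chr9:61946781-61946909 (minus strand) for Kif23, chrX:100625955-100626094 (plus strand) for Kif4, chr9:122950971-122951110 (plus strand) for Kif15, chr17:33890604-33890743 (minus strand) for Kifc1 and chr2:109280628-109280767 (plus strand) for Kif18a.

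Promoters of the transport genes Kif3c and Kif5c, which hold no match in their whole 300-base window, and of Kif26b, which does, are shown for comparison.
Kif3c: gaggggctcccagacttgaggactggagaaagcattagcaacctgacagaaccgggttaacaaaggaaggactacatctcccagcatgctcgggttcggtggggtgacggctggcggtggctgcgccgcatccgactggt
Kif5c: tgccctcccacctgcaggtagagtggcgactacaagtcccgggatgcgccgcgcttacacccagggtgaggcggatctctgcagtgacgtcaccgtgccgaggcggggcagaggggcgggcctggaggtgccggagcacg
Kif26b: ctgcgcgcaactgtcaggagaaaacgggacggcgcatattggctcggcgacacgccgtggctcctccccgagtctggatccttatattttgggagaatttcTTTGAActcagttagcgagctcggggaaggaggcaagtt
They lie at chr12:3365022-3365161 (plus strand) for Kif3c, chr2:49619176-49619315 (plus strand) for Kif5c and chr1:178529015-178529154 (plus strand) for Kif26b.

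The table held promoters for 11 of the 12 mitotic members (not Kif20a) and for 19 of the 24 others (not Kif5a, Kif5b, Kif13b, Kif19a or Kif21b). TTTGAA was searched on both strands in the 250 bases before and 50 bases after the start, and each motif was counted whether or not it overlapped another. It was in 10 of 11 mitotic promoters (90.9%), against 3 of 23 promoters listed for the other members, those of Kif1a, Kif26b and Kif27. The share was 11.7% over 10996 promoters of tested genes and 17.9% over all 32851 promoters of the table. The related letters TTCGAA were in none of the mitotic promoters and in that of Kif24, 26 bases before its start, against 2.04% for tested genes. CCAAT, searched in the same way, was in 7 of 11 mitotic promoters (63.6%), in 8 of 23 of the others (34.8%) and in 37.7% of promoters of tested genes.

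The matches of the mitotic set lay close to the start in most cases. The first base of a match was 19 bases before the start in both Kif11 and Kif15 and 17 before it in Kif22. It was base 2 of the transcript in Kifc1, base 3 in Kif23, base 4 in Kif18b, bases 8 and 14 in Kif20b and base 20 in Kif4. A match within 20 bases of the start, limits chosen after these positions were seen, was found in 8 of 11 mitotic promoters (72.7%), 1 of 23 of the others (4.35%) and 1.37% of promoters of tested genes. In Kif2c and Kif14 the match was farther out, 103 and 228 bases before the start given in the table. All distances rest on the RefSeq start of that table, and another annotation can place the start elsewhere. For Kif11 that start was 37376382 and the first base of the gene in GENCODE M21 37376403. For Kif4 they were 100626065 and 100625737, while for Kif18a both were 109280738. The annotations differed more for Kif2c and Kif14, whose searched windows lay inside the GENCODE gene. For Kif2c the window was 117178723 to 117179022, and the first GENCODE base was 117182639 on the minus strand. For Kif14 the window was 136467598 to 136467897, and the first GENCODE base was 136466343 on the plus strand. Such matches are descriptions of the sequence and do not show that a factor binds there.

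**Figure D1:**
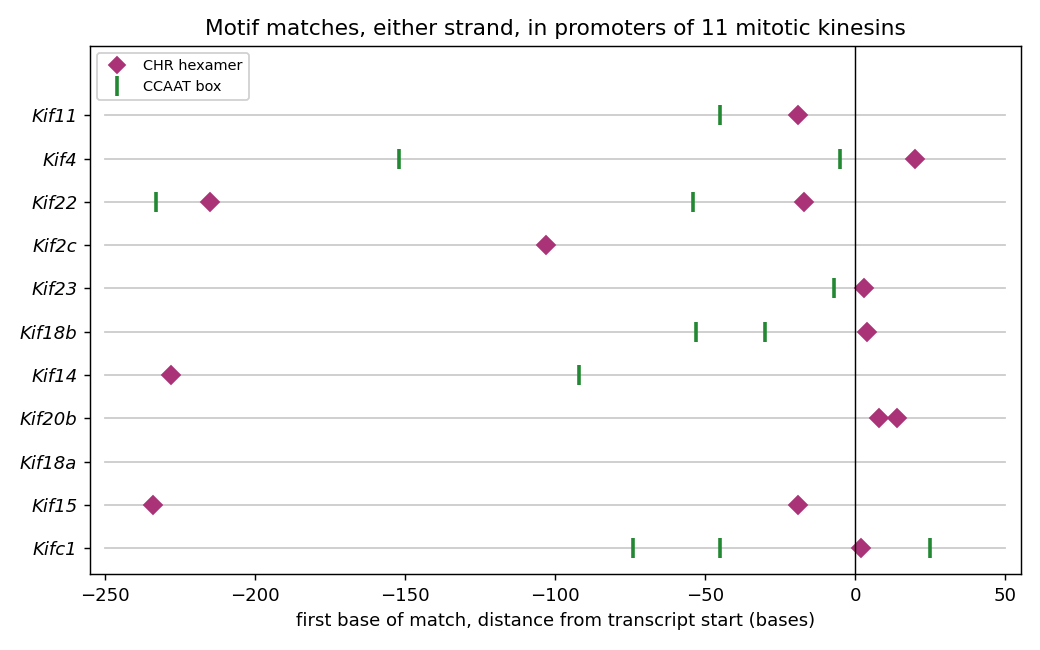
Positions of the CHR hexamer (diamonds) and of CCAAT boxes (green bars) on either strand in 11 mitotic kinesin promoters, by distance of the first base from the transcript start. Of the 11 promoters, 10 hold the hexamer, 8 of them within 20 bases of the start, and Kif18a holds neither motif.

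The comparison asks how expression in newborn keratinocytes differs when Ovol2 is deficient. All 12 mitotic kinesins were lower in both deficient libraries than in both controls, at 57.9% to 74.4% of the control mean. Of these, 2 fell past the test over all genes, Kif11 and Kif23, and the other 10 did not pass. In bulk RNA, fewer dividing cells and less mitotic kinesin RNA per dividing cell cannot be told apart. Among the other kinesins none passed and values lay on both sides of the controls. The test was limma on log2(FPKM + 1), a scale that understates changes of low genes, with Benjamini-Hochberg adjustment over the 11350 genes whose mean FPKM was 1 or more and a threshold of 0.05.

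The share of all tested genes called lower was 0.511%, and 2 of 12 mitotic kinesins were. In either direction 1.35% of all genes were called, and 2 of the 30 kinesins tested. For 12 of 12 mitotic kinesins, and for 24.0% of all tested genes, neither deficient value reached the lower control. Taking both directions, the groups stood apart for 24 of 30 kinesins and for 48.1% of all tested genes. The median log2 fold change of the 12 was -0.56, with a range of -0.72 to -0.41, while that of all tested genes was -0.0014. All 12 had an unadjusted p under 0.05 in the lower direction, as did 7.94% of all tested genes. In the authors' deposited table, made from the same libraries, 9 of the 12 had an adjusted p under 0.05 and a lower level, against 2.1% of 11582 genes with an adjusted p there. That table called 4.43% of its genes in either direction and 2.33% higher, and no kinesin higher. In that table Kif15, Kif18a and Kifc1 did not pass, with adjusted p of 0.0571, 0.182 and 0.137.

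The limma calls changed when a library was left out. Each such fit sets 1 library against 2, so the spread within groups comes from the pair that remains, and the lone library is assumed to vary like it. Without control 1, 6 of the 12 were called lower (Kif2c, Kif4, Kif11, Kif18b, Kif20a and Kif23), and without control 2, deficient library 1 or deficient library 2 there were 0, where the median of the 12 stood at -0.48, -0.60 and -0.50. For Kif11 the adjusted p in limma was 0.0250, 0.0603, 0.210 and 0.226 without control 1, control 2, deficient library 1 and deficient library 2, and for Kif23 it was 0.0295, 0.0802, 0.234 and 0.235. Both calls were also lost with quantile normalization (0.0554 and 0.0674), without the variance trend (0.0659 for both) and with no filter on low genes (0.224 for both).

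**Figure D2:**
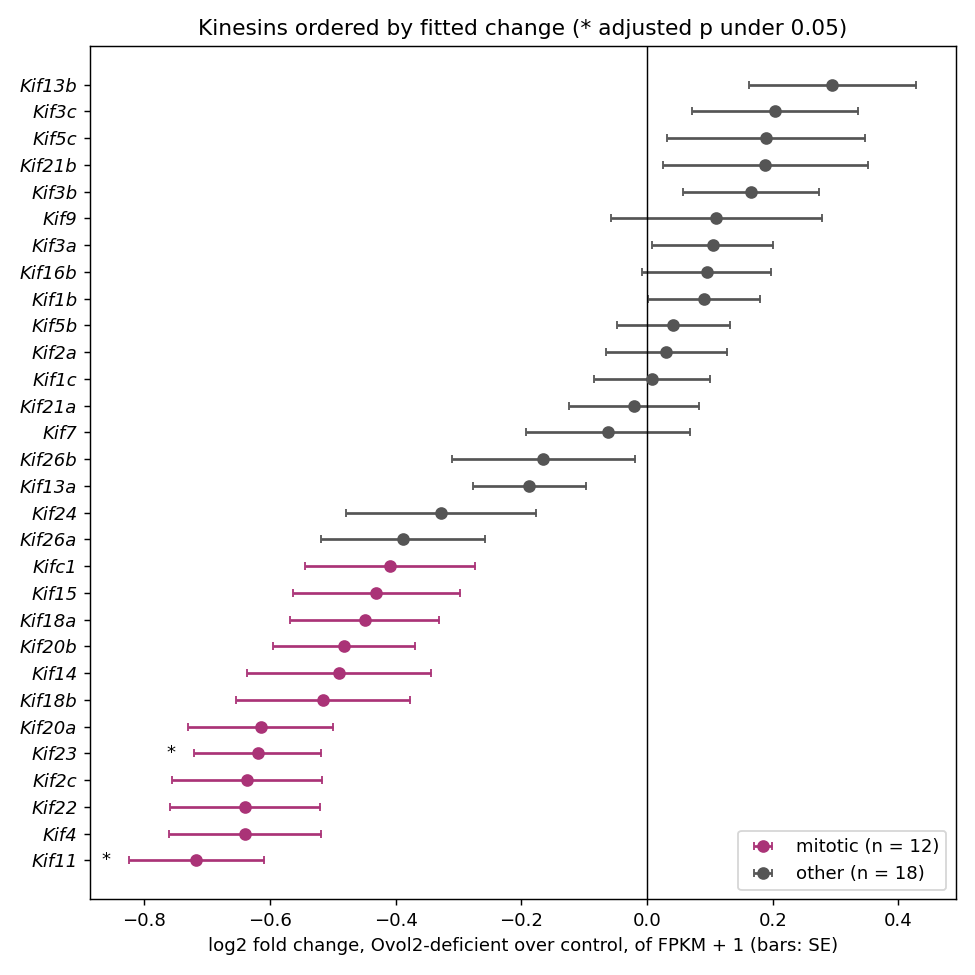
Log2 fold change of FPKM + 1, Ovol2-deficient over control, for the 30 kinesins with a mean FPKM of at least 1, with bars of 1 SE. The 12 mitotic kinesins lie between -0.72 and -0.41, the 18 others between -0.39 and 0.30, and asterisks mark Kif11 and Kif23, which passed the adjusted threshold.

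Motors that set up the spindle are described first. Kif11, the plus-end motor that slides antiparallel microtubules and pushes the poles apart, lies on chromosome 19 (ENSMUSG00000012443.4, mm10, 37376403 to 37421859). It stood at 12.8 and 13.8 FPKM in the controls, against 8.06 and 7.33 in the deficient libraries. The groups did not overlap, and each group's spread was small beside the distance between them. Kif11 averaged 13.3 ± 0.759 FPKM in controls and 7.70 ± 0.513 in deficient libraries (SD, n = 2 each). Its log2 fold change was -0.72 (SE 0.11, limma adjusted p = 0.0392).

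Kif15, which can share the work of Kif11 in keeping the spindle bipolar, had 5.03 and 6.24 FPKM in the controls, against 3.88 and 3.93 in the deficient libraries. The controls differed from each other by more than the deficient libraries did (log2 fold change -0.43, SE 0.13, limma adjusted p = 0.158). Kifc1, a minus-end motor that draws microtubules together at the poles, had 17.99 and 20.5 FPKM in the controls, against 16.1 and 12.6 in the deficient libraries. Its groups came close to each other, and its log2 fold change of -0.41 (SE 0.14, adjusted p = 0.183) was the one nearest 0 of the 12 in limma. Kifc5b, a close copy of Kifc1 in the mouse, was lower too, at 4.16 and 4.80 against 3.45 and 3.30 FPKM. Reads may be shared between these copies, so the split between them is uncertain.

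Next come the motors that act on chromosomes and microtubule ends. Kif22, a chromokinesin that pushes chromosome arms away from the poles, had 13.9 and 13.8 FPKM in the controls, against 9.44 and 7.70 in the deficient libraries. Here the deficient libraries differed from each other and the controls hardly did (log2 fold change -0.64, SE 0.12, limma adjusted p = 0.0571). Kif4, a chromokinesin of chromosome arms and the midzone, had 8.03 and 8.81 FPKM against 5.44 and 4.66, with a log2 fold change of -0.64 (SE 0.12, adjusted p = 0.0572). Kif2c, a depolymerase that lets wrongly attached microtubules go from kinetochores, had 10.3 and 11.1 FPKM against 7.12 and 5.96. Kif22, Kif4 and Kif2c thus had nearly the same log2 fold change and missed the threshold by a small margin, Kif2c at -0.64 (SE 0.12, adjusted p = 0.0572).

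Kif18a, which damps the swings of chromosomes at the metaphase plate, stood at 5.0007 and 5.07 FPKM in the controls, against 3.30 and 3.54 in the deficient libraries. Its relative Kif18b, which trims astral microtubules, had 9.95 and 12.8 against 8.05 and 7.15. The controls of Kif18b lay far apart, those of Kif18a close together, and neither gene passed (log2 fold change -0.45 and adjusted p = 0.112 for Kif18a, -0.52 and 0.118 for Kif18b, in limma).

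The motors of the midzone and of cytokinesis followed the same direction. Kif23, a subunit of centralspindlin with the protein of Racgap1, lies on chromosome 9 (ENSMUSG00000032254.10, mm10, 61915905 to 61946774). It had 13.5 and 14.7 FPKM in the controls, against 8.78 and 8.86 in the deficient libraries. Both deficient values were nearly equal and well below either control, averaging 8.82 ± 0.0564 FPKM where the controls averaged 14.1 ± 0.815 (SD, n = 2 each). The log2 fold change of Kif23 was -0.62 (SE 0.10, limma adjusted p = 0.0463).

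Kif20a, which brings the chromosomal passenger complex to the midzone, had the highest control mean of the mitotic set in FPKM, at 19.3 and 21.9 in the controls, against 14.1 and 12.1 in the deficient libraries. Its log2 fold change of -0.61 (SE 0.12) had an adjusted p of 0.0572 in limma. Kif20b, needed for the completion of cytokinesis, had 8.98 and 10.3 FPKM against 6.72 and 6.48 (log2 fold change -0.48, adjusted p = 0.0869). Kif14, which acts in cytokinesis with Prc1 and citron kinase, was the least abundant, at 2.11 and 2.47 FPKM against 1.40 and 1.29. Its mean stood at 58.5% of the control mean, close to the 57.9% of Kif11, while its log2 fold change was -0.49 (adjusted p = 0.149), since 1 is added to low values before the logarithm.

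**Figure D3:**
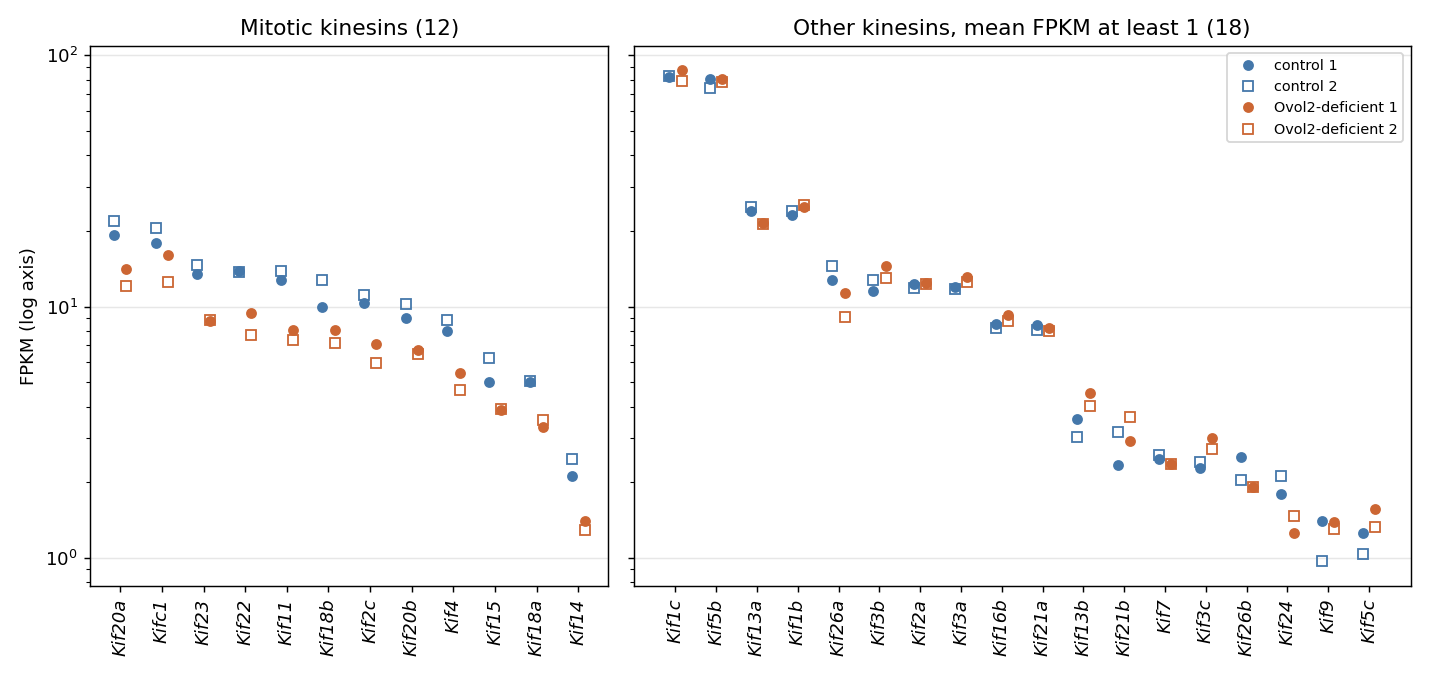
FPKM (log axis) of the 12 mitotic kinesins and of the 18 other kinesins with a mean of at least 1, with 1 point per library and genes ordered by control mean. For every mitotic kinesin both deficient points lie under both control points, while for the abundant Kif1c and Kif5b the groups overlap.

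Summed over the set, mitotic kinesin FPKM was 126.9 and 141.4 in the controls, against 92.4 and 81.6 in the deficient libraries. The other members summed to 293.6 and 292.1 in the controls, against 303.4 and 288.3 in the deficient libraries. The mitotic set made up 30.2% and 32.6% of all kinesin FPKM in the controls, against 23.3% and 22.1% in the deficient libraries. Thus the mitotic sum was 64.8% of its control mean and the sum of the others 101.01%. Within the mitotic sum, Kif14 had the smallest mean share, 1.71% in the controls and 1.54% in the deficient libraries, too small for a large change in percentage points. No member's mean share of the sum differed between the groups by more than 2.06 percentage points. That largest difference was of Kifc1, from 14.3% to 16.4%, and Kif11 went from 9.92% to 8.86%.

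**Figure D4:**
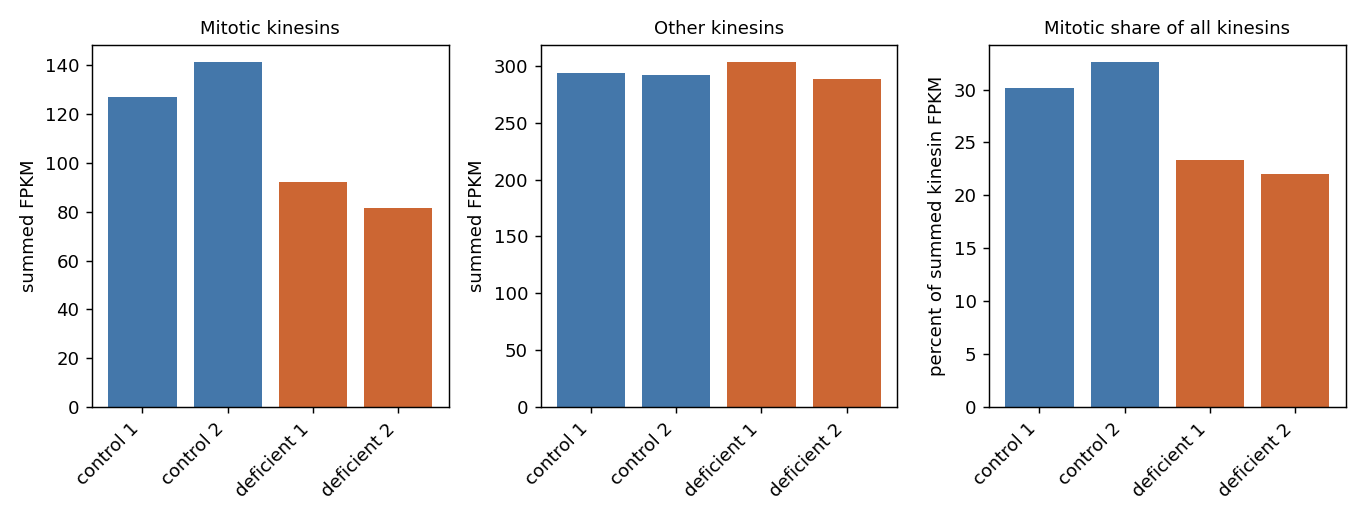
Summed FPKM of the 12 mitotic kinesins, of the 24 other kinesins, and the percent of the whole that was mitotic, with 1 bar per library. The mitotic sum was 126.9 and 141.4 in the controls, against 92.4 and 81.6 in the deficient libraries, while the other kinesins summed to 288.3 to 303.4.

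The libraries within a group also differed. Control 2 was above control 1 for 11 of 12 mitotic kinesins (91.7%), the exception being Kif22, against 9 of the 18 other kinesins tested and 46.6% of all tested genes. Deficient library 1 was above deficient library 2 for 9 of 12 mitotic kinesins (75.0%), against 14 of 18 others (77.8%) and 62.1% of all tested genes. Relative to the control mean, the median of the 12 stood at -0.07 and 0.07 in controls 1 and 2 and at -0.50 and -0.60 in deficient libraries 1 and 2, in log2 units. For the 18 other kinesins tested these medians were 0.0006 and -0.0006 in the controls, against 0.07 and 0.04 in the deficient libraries.

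Of the 24 other kinesins, 18 had a mean FPKM of at least 1 and were tested. None passed in limma, and of the 20 with an adjusted p in the authors' deposited table none passed either. An unadjusted p under 0.05 was found for 1 of the 18, Kif26a, where 17.4% of all tested genes had one. The deficient values were both lower than either control for 5 and both higher for 7, where 24.0% and 24.1% of all tested genes were, and the groups overlapped for 6. The median log2 fold change was 0.07, from -0.39 to 0.30.

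The most abundant were Kif1c and Kif5b. Kif1c, which moves vesicles and integrins, stood at 82.0 and 83.02 FPKM in the controls, against 87.02 and 79.1 in the deficient libraries. Kif5b, the widely used heavy chain of conventional kinesin, had 80.1 and 74.4 against 80.6 and 78.4. The groups overlapped for both genes, with log2 fold changes of 0.0076 (95% interval -0.21 to 0.23) and 0.04 (-0.17 to 0.25), near the median over all tested genes. Kif1b, a carrier of mitochondria and vesicle precursors, was slightly higher in both deficient libraries, at 24.9 and 25.5 against 23.2 and 24.0 FPKM (log2 fold change 0.09, 95% interval -0.12 to 0.30). Kif13a, which moves endosomes toward the cell surface, was slightly lower, at 21.5 and 21.3 against 24.1 and 24.9 FPKM (-0.19, interval -0.40 to 0.02).

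Kif26a and Kif24 were the others with the lowest log2 fold changes. Kif26a, an atypical kinesin that binds microtubules without walking, had 12.7 and 14.6 FPKM in the controls, against 11.3 and 9.11 in the deficient libraries (log2 fold change -0.39, SE 0.13, limma adjusted p = 0.190). Kif24, a centriolar depolymerase, had 1.80 and 2.12 against 1.25 and 1.47 (-0.33, SE 0.15, adjusted p = 0.333). In the reported limma fit both lay outside the log2 range of the mitotic set, though Kif24 stood at 69.3% of its control mean, within the range of that set. In the authors' deposited table both lay within the mitotic range, Kif26a at -0.38 and Kif24 at -0.44, where Kifc1 was at -0.37. In limma with a pseudocount of 0.1, Kif24 at -0.50 was within it and Kif26a at -0.42 was not, where Kifc1 was at -0.43. Kif2a, a depolymerase with roles at the spindle as well as in neurons, overlapped between the groups at 12.3 and 11.8 against 12.4 and 12.3 FPKM.

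On the higher side, Kif13b, a carrier of the polarity protein Dlg1, had 3.56 and 3.04 FPKM in the controls, against 4.53 and 4.01 in the deficient libraries (log2 fold change 0.30, SE 0.13, limma adjusted p = 0.318). Kif3c, a subunit of heterotrimeric kinesin, had 2.29 and 2.40 against 2.99 and 2.72 (0.20, adjusted p = 0.494). Kif5c, a conventional kinesin chain enriched in neurons, had 1.25 and 1.04 against 1.56 and 1.33 (0.19, adjusted p = 0.610). None of these passed, and their intervals include 0. The ciliary motor subunits Kif3a and Kif3b were also above the controls in both deficient libraries, where 24.1% of all tested genes were. Kif3a had 13.1 and 12.6 FPKM against 11.97 and 11.8 in the controls, and Kif3b had 14.6 and 13.01 against 11.55 and 12.8. Neither passed, with log2 fold changes of 0.10 and 0.17 (limma adjusted p = 0.651 and 0.498).

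The remaining tested members were Kif7, a Hedgehog pathway regulator of the ciliary tip, the endosomal motor Kif16b, and Kif9, Kif21a, Kif21b and Kif26b, with log2 fold changes of -0.16 to 0.19 and limma adjusted p of 0.628 to 0.952. The 6 that were not tested were Kif1a, Kif5a, Kif6, Kif17, Kif19a and Kif27. Of these Kif17, a homodimeric motor of cilia and dendrites, had the highest FPKM, at 0.506 and 0.728 in the controls, against 0.901 and 0.778 in the deficient libraries. Kif5a, best known from neurons, had 0.211 and 0.334 against 0.462 and 0.538. For both the deficient values were the higher ones, and the levels of Kif1a, Kif6, Kif19a and Kif27 were at most 0.204 in any library. Kif19a was listed at 0 in control 2 and deficient library 2, and Kif27 in control 1 and deficient library 1.

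Of 18 spindle and cytokinesis partners of the mitotic kinesins, 5 fell and 13 did not pass in limma, where 0.511% of all tested genes were called lower. The median log2 fold change was -0.61, and for all 18 the groups stood apart with the deficient values lower, as for 24.0% of all tested genes. The authors' deposited table called 16 of them lower, against 2.1% of its genes. Prc1, which bundles midzone microtubules and recruits Kif4 and Kif14, fell from 39.9 ± 0.689 to 25.7 ± 1.40 FPKM (SD, n = 2 each; log2 fold change -0.62, SE 0.09, limma adjusted p = 0.0392). Plk1, a mitotic kinase that binds and phosphorylates Kif20a, the contractile ring protein Anln, the abscission protein Cep55 and the spindle protein Hmmr fell as well, by 0.79, 0.67, 0.61 and 0.59 on the log2 scale. Racgap1, the partner of Kif23, had 30.1 and 34.4 FPKM against 24.2 and 21.1 and did not pass (adjusted p = 0.0818). Cenpe, a kinetochore kinesin that the name rule does not take in, had 7.84 and 8.20 FPKM against 5.24 and 5.22 (log2 fold change -0.53, adjusted p = 0.0618), while Kifc3, another outside it, overlapped at 6.97 and 6.75 against 7.56 and 5.91. Promoters were found for 14 of the 18 partners, and 15 of their 17 promoters (88.2%) held TTTGAA, against 11.7% for tested genes. A match within 20 bases of the start was in 5 of the 17 (29.4%), against 72.7% of the mitotic promoters and 1.37% for tested genes.

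Among 17 transcription regulators of late cell cycle genes, 2 fell, Foxm1 and Rbl1, and 15 did not pass, with a median of -0.12, where 0.511% of all tested genes were called lower. Both deficient values were lower than either control for 8 of the 17, against 24.0% of all tested genes, and the groups overlapped for the other 9. The authors' deposited table called 3 lower, Foxm1, Rbl1 and Mybl2, against 2.1% of its genes. Foxm1, an activator of mitotic genes, stood at 14.9 and 17.5 FPKM in the controls, against 9.88 and 9.37 in the deficient libraries (log2 fold change -0.69, SE 0.11, limma adjusted p = 0.0466). Rbl1, a pocket protein that can join DREAM, had 13.99 and 15.7 against 8.83 and 9.22 (-0.66, SE 0.10, adjusted p = 0.0434). Mybl2, which encodes B-Myb, had 12.2 and 16.7 against 9.54 and 7.71 and did not pass in limma (-0.67, adjusted p = 0.0993). Of the MuvB subunits, Lin9, Lin37, Lin52 and Lin54 overlapped between the groups, while Rbbp4 had 37.5 and 34.5 FPKM against 33.04 and 34.4. Of the subunits of the CCAAT factor NF-Y, Nfya overlapped, while Nfyb had 17.9 and 16.1 FPKM against 16.06 and 16.01 and Nfyc 28.9 and 31.1 against 26.96 and 25.3. Neither Rbbp4, Nfyb nor Nfyc passed, with log2 fold changes of -0.09, -0.08 and -0.19.

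Of 18 light chains, adaptors and other cargo partners of transport kinesins, 17 were tested and none passed in limma. Of the 17, 3 had an unadjusted p under 0.05, all higher, where 1077 of all 11350 tested genes were. The authors' deposited table called 1 higher, Fez1, against 2.33% of its genes. The median log2 fold change was 0.07, with 0 below both controls and 6 of 17 above them, where 24.0% and 24.1% of all tested genes were. The most abundant were Arl8b, a lysosomal GTPase that engages kinesins, at 89.3 and 81.9 FPKM in the controls, against 92.8 and 90.6, and the autophagy receptor Tax1bp1, at 84.8 and 73.1 against 88.5 and 89.3. The light chain Klc1, which links conventional kinesin to cargo, had 47.9 and 48.6 FPKM in the controls, against 49.1 and 48.4 in the deficient libraries. Fez1, an adaptor of conventional kinesin, had 4.27 and 2.37 against 7.22 and 5.81 (log2 fold change 0.83, limma adjusted p = 0.112).

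**Figure D5:**
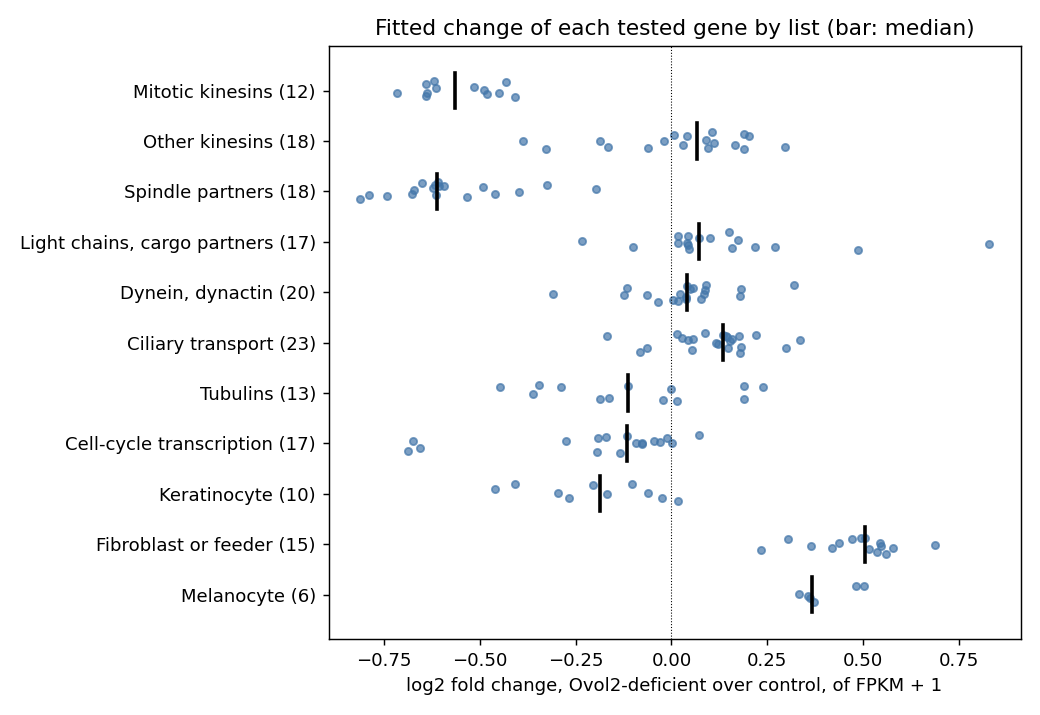
Log2 fold change of FPKM + 1 of each tested gene, Ovol2-deficient over control, by list, with the number of genes in brackets and a bar at the median. The medians are -0.56 for mitotic kinesins and -0.61 for their spindle partners, 0.07 for other kinesins and for cargo partners, and 0.50 for fibroblast or feeder markers.

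All tested fibroblast or feeder markers and all tested melanocyte markers had higher values in both deficient libraries than in either control. Most of these markers did not pass the limma test. In the immune, endothelial and neural lists only 1 of 7, 2 of 4 and 2 of 8 genes were tested. None of these was called, where 1.35% of all tested genes were. Of 10 keratinocyte markers, all 10 were tested and none was called in limma. For 5 of them both deficient values were lower than either control, as for 24.0% of all tested genes, and the groups overlapped for 5. An unadjusted p under 0.05 was found for 3, all lower, where 7.94% of all tested genes were. The authors' deposited table called 2 lower, Itga6 and Col17a1, against 2.1% of its genes. Itga6 had 120.4 and 116.5 FPKM in the controls, against 83.5 and 88.2 in the deficient libraries. Col17a1 had 367 and 345 FPKM against 266 and 270. Keratinocyte markers summed to 6849 to 7311 FPKM in the controls, against 5697 to 6608 in the deficient libraries. Of 18 fibroblast or feeder markers, 15 were tested and 2 rose in limma, Loxl1 and Pcolce, where 0.837% of all tested genes were called higher. An unadjusted p under 0.05 was found for 13 of the 15, all higher, where 1077 of all 11350 tested genes were. The authors' deposited table called 9 of the 16 with an adjusted p higher, against 2.33% of its genes. Loxl1, a collagen and elastin crosslinking enzyme, went from 12.9 and 14.7 FPKM to 22.2 and 23.5, and Pcolce, which aids collagen processing, from 44.5 and 46.9 to 65.5 and 68.02. All 15 were higher in each deficient library than in either control (24.1% of all tested genes were), with a median of 0.50, and the list summed to 357.4 to 368.8 FPKM in the controls, against 475.6 to 515.5 in the deficient libraries. Lum, of that list, was listed at 0 in control 2. Melanocyte markers summed to 62.9 to 68.6 FPKM and 85.2 to 91.8, with 6 of 9 tested and none called in limma. Of the 6, 4 were higher at an unadjusted p under 0.05, where 1077 of all 11350 tested genes were. The authors' deposited table called 1 of the 8 with an adjusted p higher, Dct, against 2.33% of its genes. The melanin enzymes Dct and Tyrp1 led that list, at 18.1 and 20.4 against 28.1 and 26.5 FPKM and at 14.6 and 16.2 against 20.7 and 19.7. Immune markers summed to at most 1.91 FPKM with Cd207 and H2-Aa at 0, endothelial markers to at most 4.67 with Cdh5 at 0, and Schwann or neural markers to 39.9 to 57.3, mostly Tubb3, a tubulin gene also held in the tubulin list. The part of these cells in the kinesin values was not tested.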

How the data were processed

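The authors deposited FPKM values for 4 libraries, named as FPKM per the file headers, and a comparison of mutant with control. Per the file headers, the deposited comparison gives for each gene a mean normalized signal, log2 fold change, standard error, score of the test, p-value and adjusted p-value. The submitters' processing notes name TopHat, HTSeq and mm10, and no source used here names the tool behind the FPKM. Relative depth was read as the commonest ratio between libraries among genes under 0.15 FPKM; absolute depth cannot be, so no counting interval was computed.

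Of 24487 rows, 27 whose symbols had turned into dates were dropped, and rows of 1 symbol were added up. Columns named mutant were assigned to the Ovol2-deficient group, whose sample titles use the code SSKO in place of mutant. Any pair of libraries shared 5 to 13 identical values among 11350 tested genes. The test was limma 3.58.1 in R 4.3.3 (group only, empirical Bayes with a variance trend). It was run on simulated data drawn from its own fitted variances, which cannot show how well the model suits these FPKM values. With 2 libraries per group no permutation can reach 0.05, so tests rest on the model. The members and lists were chosen with earlier results of these data known. Named in full were the mitotic members and, of the others, any called, the 5 with the highest mean FPKM, and the 3 largest non-overlapping changes each way. From other lists, called genes were named, or the 2 with the highest mean where none was called (for the immune, endothelial and neural lists only sums are given); Racgap1, Cenpe, Kifc5b, Fez1, Klc1, Mybl2 and the MuvB and NF-Y genes were added for their roles, and Kif2a, Kif3a, the untested members, Nde1, Ndel1 and the tubulins other than Tubb5 and Tubb4b after their values were seen. Itga6 and Col17a1 were named because the authors' deposited table called them. Alternatives were other pseudocounts, filters, quantile normalization, no variance trend, the replicate number as a block, and each library left out. Gene coordinates are from GENCODE M21.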

Additional observations from a re-analysis of the deposited data

How the results depend on the processing

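All 12 mitotic kinesins kept a log2 fold change below 0 under every alternative that could test them (129 of 129 values), while the number called did not hold. Outside quantile normalization these signs were fixed beforehand. The filters, the variance trend and the replicate block leave a gene's fold change as it was. Since the groups of each of the 12 stood apart, another pseudocount or a left-out library cannot reverse it either. With quantile normalization, which could have, the 12 ran from -0.74 (Kif11) to -0.42 (Kifc1). With 2 of 12 called as reported among 153 genes in all, the mitotic count and the count over all genes were 6 and 267 with a minimum mean FPKM of 5, 0 and 3 with no filter beyond a mean above 0, 0 and 5 with quantile normalization, and 0 and 6 without the variance trend. With 1 library left out they ranged from 0 to 6 and from 10 to 397. With the replicate number as a block they were 6 and 518; the same-numbered libraries deviated together with a correlation of 0.22 across genes, but nothing in the labels pairs them. No other kinesin was called under any alternative.

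The mitotic median was -0.66 with a pseudocount of 0.1 and -0.65 to -0.48 with 1 library left out, and its distance from the median of the others, -0.63 as reported, was -0.73 and -0.72 to -0.49. The median of the others was 0.036 with either filter, 0.024 with quantile normalization and 0.00998 to 0.074 with 1 library left out. Kif1c reversed to -0.0095 with quantile normalization and ranged from -0.061 to 0.076 with 1 library left out, and Kif5b from -0.011 to 0.095; neither was called. The cause of these shifts was not tested. The precision is limited by 2 libraries per group and by the unknown absolute depth, above all for members under 1 FPKM.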

Other observations

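Other microtubule genes are given here as values. Of 22 genes of dynein, the main minus-end motor, and its activator dynactin, 20 were tested and none passed in limma. An unadjusted p under 0.05 was found for 2 of the 20, where 17.4% of all tested genes had one. The authors' deposited table called none, against 4.43% of its genes. Their median log2 fold change was 0.04. Nde1, a dynein regulator with roles in mitosis, stood at 27.1 and 26.3 FPKM in the controls, against 21.3 and 21.5 in the deficient libraries (log2 fold change -0.31, limma adjusted p = 0.137), while its relative Ndel1 stood at 78.7 and 80.7 against 108.3 and 91.9 (0.32, adjusted p = 0.181). Both genes had groups that did not overlap, in opposite directions, and were chosen after their values were seen. Of the 20 tested genes, both deficient values were lower than either control for 2 and higher for 5, and the groups overlapped for 13. Over all tested genes the lower and higher shares were 24.0% and 24.1%. The most abundant, the light chains Dynlrb1 and Dynlt3, had log2 fold changes of -0.12 and 0.04.

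Of 24 genes of ciliary transport, the cargo complexes of Kif3a and Kif3b, 23 were tested and none passed in limma. An unadjusted p under 0.05 was found for 2 of the 23, where 17.4% of all tested genes had one. The authors' deposited table called none, against 4.43% of its genes. Both deficient values lay above both controls for 11 of 23, where 24.1% of all tested genes did so, and the median was 0.13. The most abundant, Ift20 and Ift52, overlapped between the groups. Of 13 tubulin genes none passed in limma, and 4 were lower at an unadjusted p under 0.05, where 7.94% of all tested genes were. The authors' deposited table called 2 lower, Tuba1b and Tubb5, against 2.1% of its genes. Tuba1b had 136.1 and 149.02 FPKM against 110.4 and 98.1, and Tubb5 had 384.9 and 420.3 against 332.5 and 300.5. Both deficient values were lower than either control for 6 of 13, where 24.0% of all tested genes were: these 2 and Tuba4a, Tubb2b, Tubb6 and the centrosomal gamma tubulin Tubg1. The groups overlapped for the other 7, among them the abundant Tubb4b.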
